A study of Mus musculus with 7 samples.

Results

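Kinesins are motor proteins that walk along or dismantle microtubules, and they were examined here as the genes whose symbol in the array annotation is Kif followed by a number. There were 37 such genes among 18193 named genes on the array, measured by 99 probe sets that match a single gene. The cells were taken as granule neuron precursors of the mouse cerebellum. Flow cytometry sorted them into a Nestin-positive fraction (4 arrays, replicates 1, 3, 4 and 5) and a Nestin-negative fraction (3 arrays, replicates 1, 4 and 5). Both fractions came from animals of the labelled genotype Math1-Cre/Ptc-loxp/Nestin-CFP, with the deletion of Ptch1 and the fluorescent Nestin reporter. No wild-type group was compared. In these mice Cre under the Math1 promoter deletes Ptch1, which encodes the receptor that restrains Hedgehog signalling, in the granule lineage. The sample labels give postnatal day 7 and call the tissue medulloblastoma, while the series text gives postnatal day 4, and neither states whether animals were pooled or separate. The p-values therefore measure the spread between these samples, which may be technical.

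Mitotic kinesins build the spindle, align chromosomes and complete cytokinesis, and their messages accumulate in dividing cells in the G2 and M phases. Axonal kinesins carry vesicles, mitochondria and other cargo out along the microtubules of neurites, or tune microtubule growth there, and many of them are enriched in neurons. Granule neuron precursors divide in the outer part of the external granule layer and then extend axons once they leave the cycle, so the same gene family serves both states of this lineage.

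The comparison sets sorted cells with Nestin reporter signal against those without it, both from animals with Ptch1 deleted in the granule lineage. Signals are MAS5 intensities of single probe sets on a linear scale, differences are log2 Nestin-positive minus Nestin-negative with their SE, and tests are limma with Benjamini-Hochberg adjustment over 11089 genes at a threshold of 0.05. Of the 37 kinesin genes, 28 had a probe set at or above the array median on at least 3 arrays and were tested, each by its brightest such probe set. A second fit treated replicates 1, 4 and 5 as pairs (the replicate block) and is given wherever it changed a call. Nes, whose reporter defined the sort, averaged 643 ± 161 in Nestin-positive and 190.3 ± 23.5 in Nestin-negative cells (SD, n = 4 and 3), which checks the labels and is no finding. Of the granule precursor markers, 11 of 11 measured members, including Atoh1, Zic1, Pax6 and Barhl1, lay at or above the array median on all 7 arrays. The same held for 9851 of all 11089 genes tested. Of these markers 6 had positive and 5 negative differences. With the block 3 were higher, Barhl1, Ccnd1 and Atoh1 (adjusted p = 0.0137, 0.0279 and 0.0358), and 0 lower, against 3.6% and 6.52% of all genes. Without the block their adjusted p-values were 0.205, 0.336 and 0.576. All 9 measured microglia markers were lower on the Nestin-positive arrays, with a summed signal of 291 to 1094 in Nestin-positive and 2077 to 7925 in Nestin-negative cells, and C1qc and Lyz2 were dimmer than the median probe set on all 4 Nestin-positive arrays. Pericyte markers (8 measured) summed to 636 to 2101 on Nestin-positive and 1372 to 9685 on Nestin-negative arrays, and meningeal fibroblast markers (5 measured) to 3546 to 5463 on Nestin-positive and 4988 to 10812 on Nestin-negative arrays. The 4 measured markers of GABAergic neurons summed to 547 to 866 on Nestin-positive and 872 to 1184 on Nestin-negative arrays. Of these, Gad1 (dimmer than the median probe set in every Nestin-positive sample) and Tfap2b were lower with the block (adjusted p = 8.04e-05 and 0.000248; 0.17 and 0.277 without it), and Pvalb was higher (0.0393; 0.687 without it). The sums of 9 astrocyte and Bergmann glia markers overlapped, at 7283 to 27434 on Nestin-positive and 6211 to 18514 on Nestin-negative arrays. With the block Aqp4, Hopx, Aldh1l1 and Fabp7 were lower (adjusted p = 1.33e-07, 7.76e-07, 0.000358 and 0.00148), against 6.52% of all genes. Slc1a2 and Gdf10 were higher (0.00176 and 0.00288), against 3.6%. None was called without the block, where adjusted p was 0.514, 0.487, 0.774 and 0.98 for the lower markers. It was 0.117 and 0.302 for the higher ones. Sums of 4 oligodendrocyte markers overlapped, at 2994 to 4109 on Nestin-positive and 3265 to 3502 on Nestin-negative arrays. Those of 8 endothelial markers did too, at 408 to 1730 and 609 to 1860. With the block Olig1 and Olig2 were higher (adjusted p = 0.0325 and 0.00158) and the endothelial Esam lower (0.0401). Without it these values were 0.301, 0.407 and 0.621. The part of all these other cells, neurons of another type included, in the kinesin values was not tested. With sorted bulk samples, fewer cells of a type and less RNA per cell cannot be told apart.

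Of the 9 measured mitotic kinesins 8 had higher mean log2 signals in Nestin-positive cells, and of the 9 axonal kinesins 7 had lower ones, but the test without the block called 1 kinesin gene higher, Kif21a, and 1 lower, Kif21b. The 7 lower axonal ones include Kif17 and Kif1a, near the array median, and Kif1b, whose probe sets disagreed in sign. Over all genes tested, 0.171% were called higher and 0.577% lower. With the replicate block 8 kinesin genes were called higher and 3 lower, where 3.6% of all genes were called higher and 6.52% lower. The 8 were Kif4, Kif11, Kif18b, Kif20a, Kif20b, Kif23, Kif2c and Kif21a, and the 3 were Kif3c, Kif5a and Kif21b. With the block but without the pair of replicate 1, 2 were called higher, Kif20a and Kif21a, and 2 lower, Kif5a and Kif21b. The other 7 kept their direction with 2 pairs left, Kif18b at 0.44 (adjusted p = 0.0534), Kif4 at 0.44 (0.0686), Kif20b at 0.43 (0.103), Kif23 at 0.36 (0.148), Kif11 at 0.33 (0.17), Kif2c at 0.26 (0.326) and Kif3c at -0.28 (0.371). The adjusted p-values with 2 pairs left rest mainly on the spread that limma borrows from other genes, not on replication of each gene. The groups did not overlap for 10 kinesin genes that were higher and 3 that were lower in Nestin-positive cells, and over all genes this held for 5.87% and 9.11%.

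**Figure D1:**
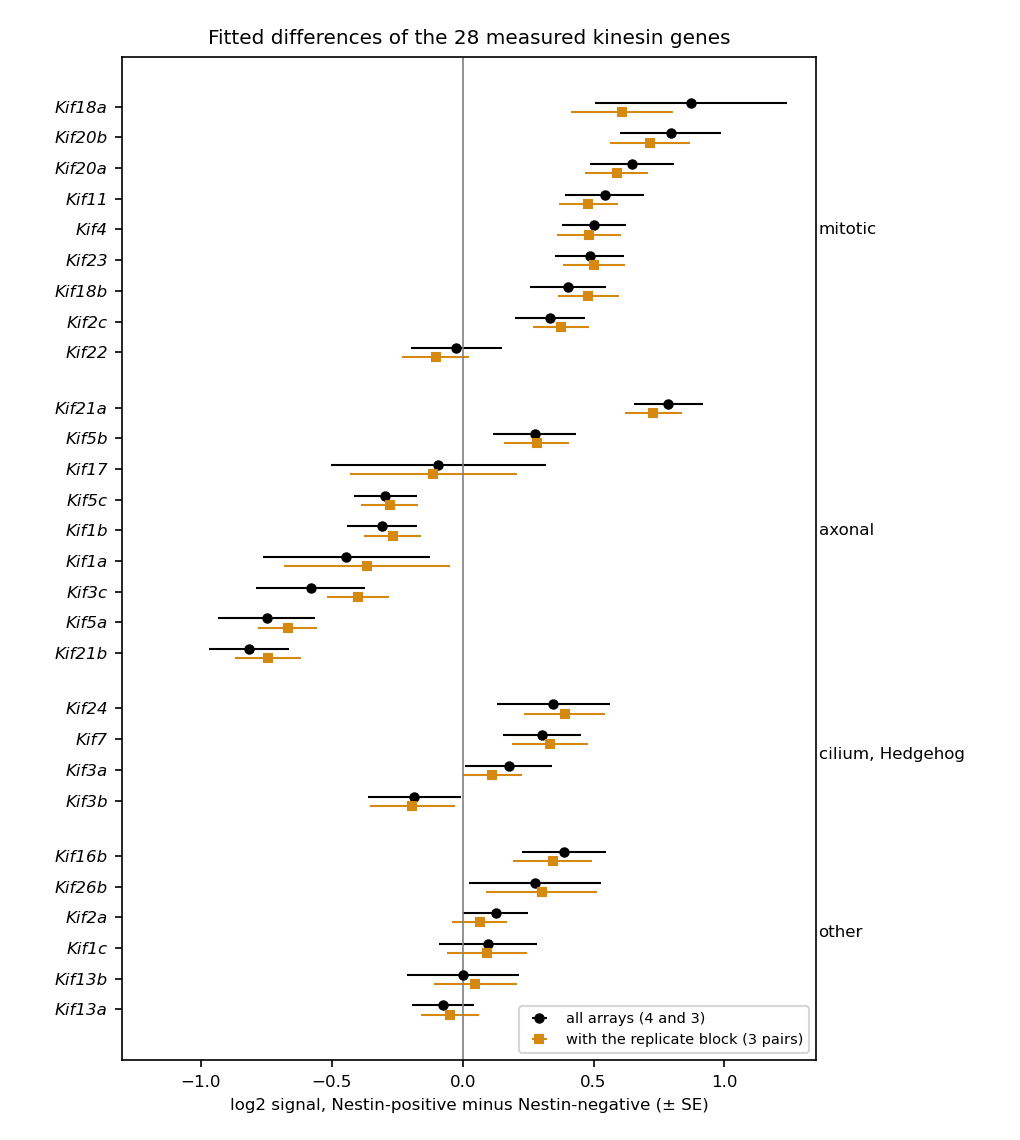
Fitted log2 difference (Nestin-positive minus Nestin-negative, x axis) of each of the 28 measured kinesin genes, grouped by role. Black circles are the fit to all 7 arrays and orange squares the fit with the replicate block, with SE as bars. Of the 9 mitotic genes 8 lie above 0, and of the 9 axonal genes 7 lie below it, Kif21a and Kif5b being the exceptions.

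The mitotic list held 11 genes, of which 9 were measured, and their median log2 difference was 0.50, against -0.03 over all genes. Of these 9, 8 had positive differences, 7 were higher without overlap of the groups, and 7 were higher with the replicate block. Over all genes these shares were 45.5%, 5.87% and 3.6%. Without the block none was called, although 8 were higher at an unadjusted p under 0.05, as were 5.33% of all genes (9.09% were lower and 14.4% either). Leaving out each array in turn gave list medians of 0.43 to 0.58.

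Kif11 (Eg5), the motor that pushes the spindle poles apart, had signals of 1939, 2369, 2054 and 1982 across the Nestin-positive arrays and 1132, 1616 and 1591 across the Nestin-negative arrays. All 4 Nestin-positive arrays were above all 3 Nestin-negative ones, and Nestin-negative replicate 1 was the lowest. The difference was 0.54 ± 0.15, or 1.46-fold (adjusted p = 0.137; 0.48 ± 0.11 and 0.00814 with the block). Its other probe sets gave differences of 0.69 and 0.62, the dimmer of them with overlapping groups.

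Kinesins of the spindle midzone and of cytokinesis gave the same direction. Kif23 (MKLP1), which forms the centralspindlin complex with the GTPase-activating protein Racgap1, had 1819, 1473, 1385 and 1454 across the Nestin-positive arrays and 1052, 1186 and 1035 across the Nestin-negative arrays. Kif20a (MKLP2), which brings Aurora B and its partners to the midzone, had 1047, 1153, 989 and 913 across the Nestin-positive arrays and 755, 718 and 514 across the Nestin-negative arrays. Kif20b (MPP1), a kinesin needed for the last steps of cytokinesis, had 948, 993, 759.7 and 697 across the Nestin-positive arrays and 387, 623 and 471 across the Nestin-negative arrays. None of these overlapped between the fractions, and the lowest Nestin-negative array was replicate 5 for Kif23 and Kif20a and replicate 1 for Kif20b. The difference of Kif20b was 0.80 ± 0.19, or 1.74-fold, that of Kif20a 0.65 ± 0.16, or 1.57-fold, and that of Kif23 0.49 ± 0.13. Their adjusted p-values were 0.0965, 0.102 and 0.123 in limma without the block. With the block they were 0.00382, 0.00268 and 0.00802.

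Kif4, a chromokinesin that binds the midzone crosslinker Prc1, had 924, 958, 852 and 947 across the Nestin-positive arrays and 626, 721 and 608 across the Nestin-negative arrays. Every Nestin-positive array was higher, by 0.50 ± 0.12 (adjusted p = 0.0961; 0.48 ± 0.12 and 0.0134 with the block). Kif18b, which shortens astral microtubules, had 960.3, 845, 1154 and 1029 across the Nestin-positive arrays and 656, 772 and 832 across the Nestin-negative arrays, again without overlap. Its difference was 0.40 ± 0.15 (adjusted p = 0.241; 0.48 ± 0.12 and 0.00968 with the block). Kif2c (MCAK), a depolymerase that corrects wrong attachments of chromosomes to the spindle, had 2787, 2571, 3029 and 2848 across the Nestin-positive arrays and 1837, 2509 and 2394 across the Nestin-negative arrays. The groups were close but separate, and the difference of 0.33 ± 0.13 was the smallest of the 7 called with the block (adjusted p = 0.291; 0.37 ± 0.11 and 0.0269 with the block). All 4 kept Kif2c probe sets had positive differences.

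Kif18a and Kif22 stood apart from the other mitotic kinesins. Kif18a, which damps chromosome movements at the metaphase plate, had 719, 1449, 666 and 705 across the Nestin-positive arrays and 247, 681 and 566 across the Nestin-negative arrays. Nestin-positive replicate 3 was far above the rest, Nestin-negative replicate 1 was far below it, and the other arrays overlapped. The difference of 0.87 ± 0.37 missed the threshold (adjusted p = 0.318; 0.61 ± 0.19 and 0.0516 with the block) and lay between 0.43 and 1.16 with each array left out, 0.43 being the value without Nestin-negative replicate 1. Kif22 (Kid), a chromokinesin that pushes chromosome arms outward, had 3856, 4631, 3859.9 and 3480.2 across the Nestin-positive arrays and 3597, 3319 and 5382 across the Nestin-negative arrays for its brightest probe set. The high value of Nestin-negative replicate 5 made the groups overlap, and the difference was -0.03 ± 0.17. Its other kept probe sets gave 0.35 ± 0.15 and 0.36 ± 0.15, so that the direction of Kif22 depended on the probe set.

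**Figure D2:**
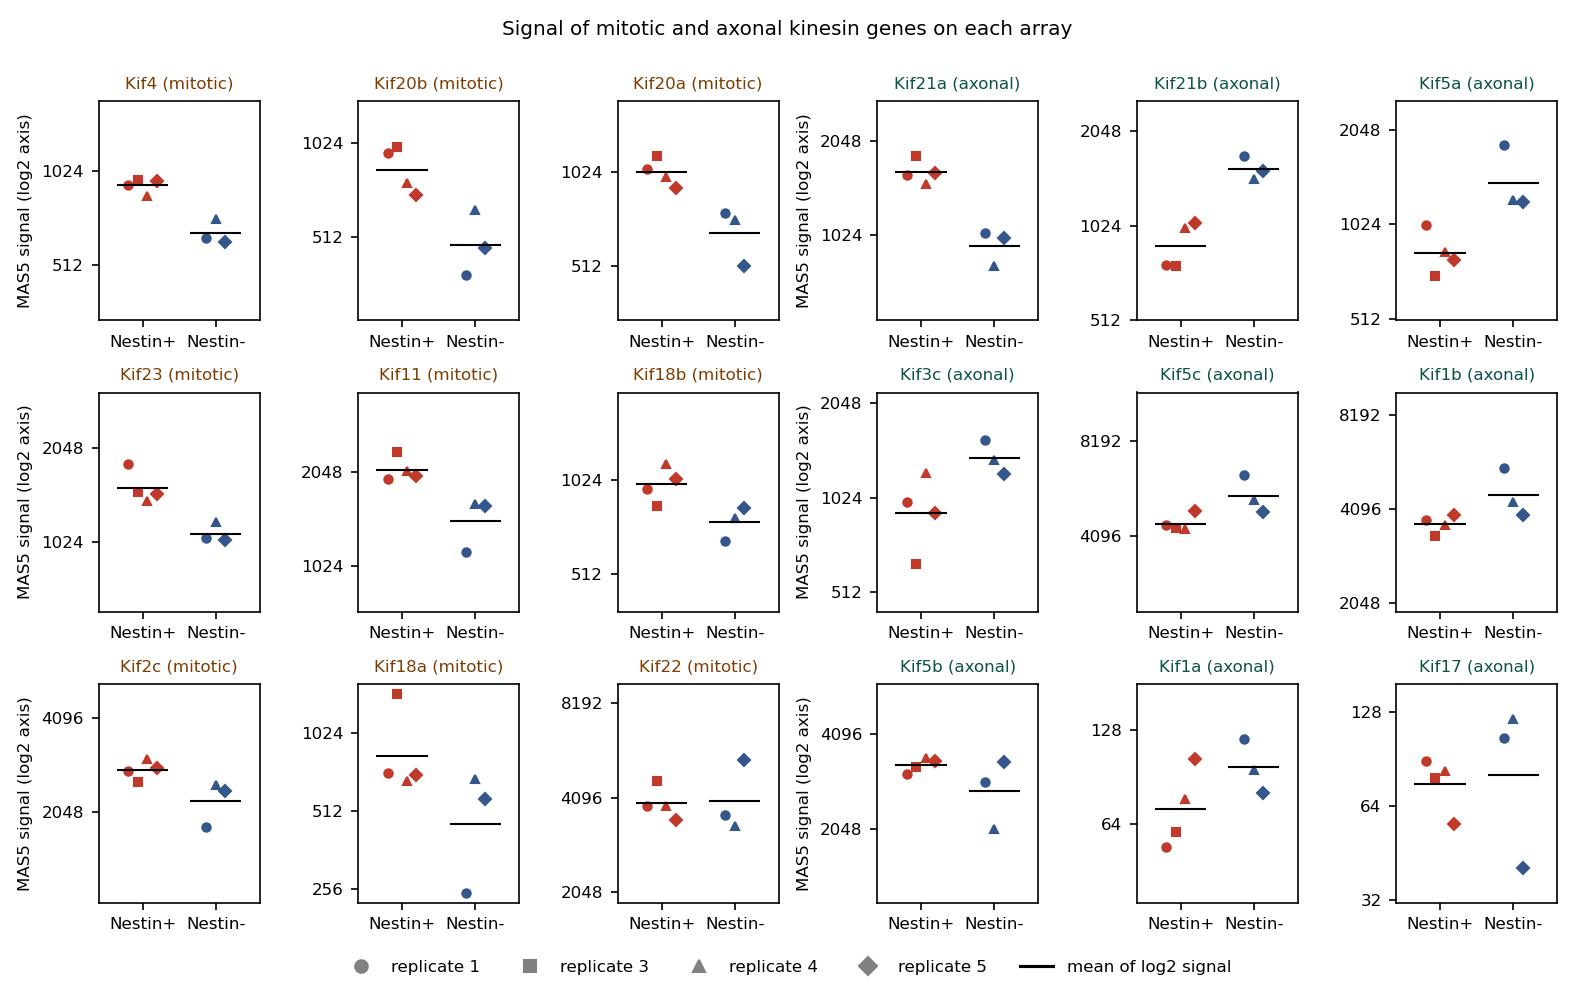
MAS5 signal (log2 axis, each panel with its own range) of the 9 measured mitotic kinesin genes (left 3 columns) and the 9 axonal kinesin genes (right 3 columns), Nestin-positive left of Nestin-negative. Each symbol is 1 array, its shape the replicate number, and the line is the group mean of log2 signal. Kif4 and Kif21a show separate groups, while Kif22 and Kif17 overlap.

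Promoter sequences of the kinesins were examined because 7 mitotic members were called in the same direction with the block. Many genes of mitosis carry a CHR element (cell cycle genes homology region) near the transcript start, often downstream of CCAAT boxes, which bind the factor NF-Y. RefSeq windows of the GRCm38.p6 build, from 250 bases before to 50 bases after the start, were found for 31 of the 37 genes. They were searched for TTTGAA or TTCAAA (the CHR element on either strand) and for CCAAT or ATTGG (the CCAAT box on either strand), and in the kinesin windows no match of one motif overlapped a match of the other. Of 10 mitotic kinesins with a window, 9 held a CHR element, 6 a CCAAT box and 6 both. Of 6 axonal kinesins with a window, 1 held a CHR element (Kif1a, in 1 of its 2 windows), 1 a CCAAT box (Kif1b) and 0 both. No window was found for the axonal Kif5a, Kif5b and Kif21b or for the mitotic Kif20a, so these are absent from the counts. Over all 32851 windows, 17.9% held a CHR element, 37.4% a CCAAT box and 6.95% both, counted per window, while the kinesins were counted per gene. A match is a string of letters and not a shown binding site, and no array value here tests it.

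The stretches that show these motifs near the start run 5′ to 3′ along the gene, from 100 bases before to 25 bases after the start, with matches to either motif in capitals. The first 5 are mitotic kinesins that were higher with the block, and Kif3c and Kif21a are axonal kinesins, lower and higher with the block, shown because their windows hold neither motif. They lie at chr19:37376282-37376406 (plus strand), chr9:61946775-61946899 (minus strand), chr11:102925100-102925224 (minus strand), chrX:100625965-100626089 (plus strand), chr19:34922258-34922382 (plus strand), chr12:3365032-3365156 (plus strand) and chr15:91049927-91050051 (minus strand).
Kif11: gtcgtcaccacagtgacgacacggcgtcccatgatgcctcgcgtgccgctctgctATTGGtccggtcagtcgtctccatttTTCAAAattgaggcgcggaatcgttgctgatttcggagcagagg
Kif23: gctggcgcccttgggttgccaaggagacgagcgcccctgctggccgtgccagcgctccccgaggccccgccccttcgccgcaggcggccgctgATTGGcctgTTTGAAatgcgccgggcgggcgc
Kif18b: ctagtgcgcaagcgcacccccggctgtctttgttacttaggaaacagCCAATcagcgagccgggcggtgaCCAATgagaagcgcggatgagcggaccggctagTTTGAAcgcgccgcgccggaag
Kif4: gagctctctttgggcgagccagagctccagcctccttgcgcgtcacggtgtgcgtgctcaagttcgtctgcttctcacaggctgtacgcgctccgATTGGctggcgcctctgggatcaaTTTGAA
Kif20b: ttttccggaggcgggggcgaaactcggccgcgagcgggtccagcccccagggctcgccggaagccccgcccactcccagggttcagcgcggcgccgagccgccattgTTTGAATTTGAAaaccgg
Kif3c: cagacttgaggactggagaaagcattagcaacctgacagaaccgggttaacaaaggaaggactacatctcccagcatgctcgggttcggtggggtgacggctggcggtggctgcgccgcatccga
Kif21a: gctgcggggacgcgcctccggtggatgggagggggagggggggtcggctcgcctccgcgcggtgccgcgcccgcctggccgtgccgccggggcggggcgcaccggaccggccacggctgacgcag
In Kif11 the CCAAT box begins 45 bases and the CHR element 19 bases before the start. In Kif23 the CCAAT box begins 7 bases before the start and the CHR element at base 3 of the transcript. Kif18b has CCAAT boxes 53 and 30 bases before the start, followed by a CHR element at base 4, and Kif20b has adjoining CHR elements at bases 8 and 14 without a CCAAT box. Kif18a, whose groups overlapped, held neither motif in its window, whereas Kif22 held CHR elements 215 and 17 bases before the start.

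**Figure D3:**
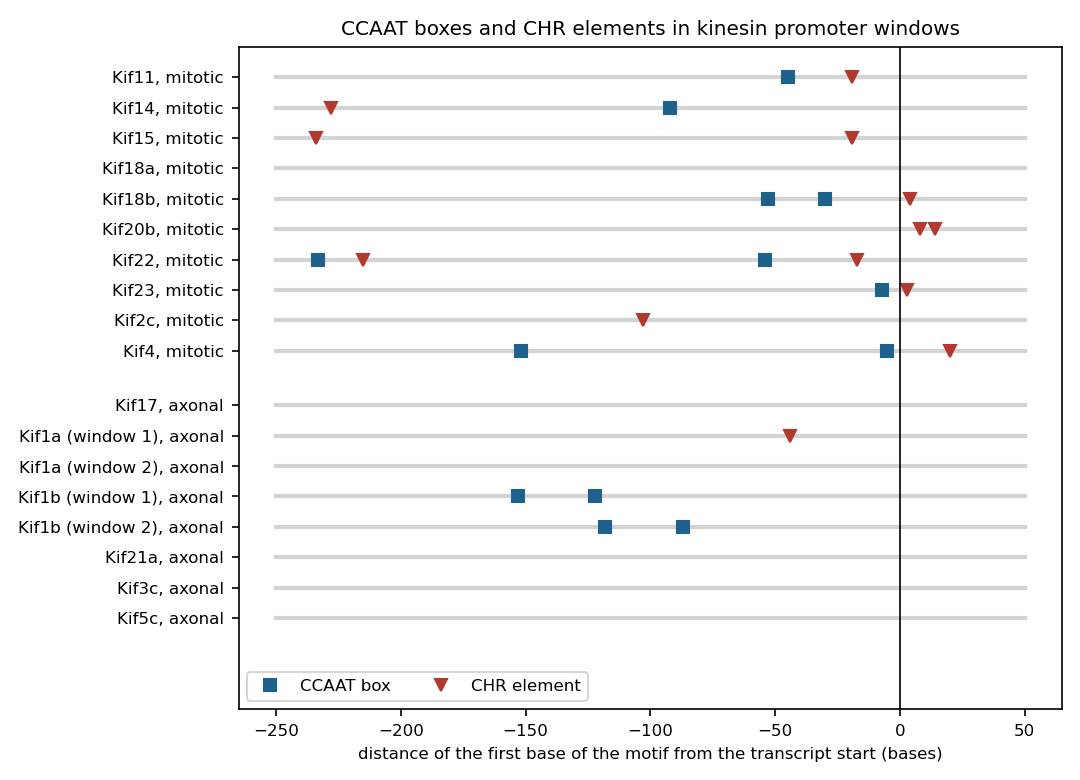
Distance in bases (x axis) from the transcript start to the first base of each CCAAT box (blue squares) and CHR element (red triangles) in the promoter windows (grey bars) of 10 mitotic and 6 axonal kinesin genes, with the windows of Kif1a and Kif1b shown separately. CHR elements occur in 9 of the 10 mitotic genes, in Kif11, Kif15, Kif18b, Kif20b, Kif22, Kif23 and Kif4 within 20 bases of the start.

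The 9 axonal kinesins, a list that includes the dendritic motor Kif17, were all measured, and their median log2 difference was -0.31. Of these, 7 had negative differences and 2 positive ones, where 54.5% of all genes had negative ones. Without the block 1 was called lower and 1 higher, against 0.577% and 0.171% of all genes. With it 3 were lower and 1 higher, against 6.52% and 3.6%. The median lay between -0.58 and -0.19 with each array left out, the first on omitting Nestin-negative replicate 5 and the second on omitting Nestin-negative replicate 1. With the block and without the pair of replicate 1 it was -0.12.

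Kif21b, a kinesin-4 motor of axons and dendrites that also restrains microtubule growth, had 768, 763, 1006 and 1043 across the Nestin-positive arrays and 1713, 1443 and 1531 across the Nestin-negative arrays. Every Nestin-positive array was lower than every Nestin-negative one. The signal fell 1.76-fold in Nestin-positive cells, with a log2 difference of -0.82 ± 0.15 (adjusted p = 0.048; -0.74 ± 0.13 and 0.000443 with the block). Among the 35 ways to divide the arrays 4 against 3, the exact permutation test (two-sided) gave p = 0.0286, and no smaller p can be reached. This lowest value was shared by 11 of the 28 tested kinesin genes, so it does not set Kif21b apart.

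Kif21a, its closest relative and a kinesin-4 that limits microtubule growth at the cell edge, ran the other way. It had 1601, 1839, 1497 and 1623 across the Nestin-positive arrays and 1042, 818 and 1003 across the Nestin-negative arrays. The groups were far apart and every Nestin-positive array was higher. The signal rose 1.72-fold, with a log2 difference of 0.78 ± 0.13 (adjusted p = 0.036; 0.73 ± 0.11 and 0.000139 with the block; exact permutation test, p = 0.0286). A second kept probe set had 921, 1190.3, 825 and 907 across the Nestin-positive arrays and 715, 789 and 789 across the Nestin-negative arrays, a smaller difference of 0.32 ± 0.15 in the same direction and without overlap. In the pairs of replicates 1, 4 and 5, Kif21a differed by 0.62, 0.87 and 0.69 and Kif21b by -1.16, -0.52 and -0.55.

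Both calls depended on which arrays were used. Without any 1 array other than Nestin-positive replicate 4, neither passed: the adjusted p of Kif21a was 0.0706 to 0.16 and that of Kif21b 0.0735 to 0.157, with differences of 0.68 to 0.85 and of -0.89 to -0.74 over all 7 omissions. When every probe set was tested on its own, adjusted over 20162 probe sets, neither passed without the block (0.0832 and 0.104) and both did with it (0.00215 and 0.00607).

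Kif5a, the neuron-specific heavy chain of conventional kinesin, had 1019, 698, 833 and 788 across the Nestin-positive arrays and 1827, 1220.2 and 1204 across the Nestin-negative arrays. The groups did not overlap, and replicate 1 had the highest signal in each fraction. Its signal was 1.68-fold lower in Nestin-positive cells, a log2 difference of -0.75 ± 0.18 (adjusted p = 0.101; -0.67 ± 0.11 and 0.000429 with the block). Kif5c, another neuronal heavy chain, had 4428, 4319, 4298 and 4899 across the Nestin-positive arrays and 6401, 5313 and 4885 across the Nestin-negative arrays. Its lower values overlapped by Nestin-positive replicate 5, and the difference of -0.30 ± 0.12 missed the threshold in both fits (adjusted p = 0.294, and 0.12 with the block). Kif5b, the heavy chain used in most cell types, had 3063, 3218, 3446 and 3366 across the Nestin-positive arrays and 2878, 2050.3 and 3344 across the Nestin-negative arrays. Only Nestin-negative replicate 5 reached the Nestin-positive range, and the difference of 0.28 ± 0.16 was positive, opposite to the other heavy chains, with adjusted p = 0.487.

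Kif3c, a neuron-enriched kinesin-2 motor, had 994, 630.3, 1227 and 917 across the Nestin-positive arrays and 1559, 1353 and 1219 across the Nestin-negative arrays. Nestin-positive replicate 4 overlapped narrowly with Nestin-negative replicate 5, and replicate 3 was the lowest of all arrays. The difference was -0.58 ± 0.21 (adjusted p = 0.236; -0.40 ± 0.12 and 0.0328 with the block). Its dimmer probe set had 353, 289.8, 391 and 367 across the Nestin-positive arrays and 611, 478 and 539 across the Nestin-negative arrays, without overlap and with a difference of -0.63 ± 0.16.

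Kif1b, a carrier of mitochondria and synaptic vesicle precursors, had 3776, 3356, 3636 and 3911 across the Nestin-positive arrays and 5533, 4314 and 3918 across the Nestin-negative arrays. The Nestin-positive arrays were all lower, although Nestin-positive replicate 5 nearly met Nestin-negative replicate 5, and the difference was -0.31 ± 0.13 (adjusted p = 0.332). Of its 7 kept probe sets 4 had negative and 3 positive differences, so the probe sets disagree. Kif1a, the carrier of synaptic vesicle precursors in axons, had 54.1, 60.7, 77.1 and 104 across the Nestin-positive arrays and 119.6, 95.6 and 80.8 across the Nestin-negative arrays. It was at or above the array median on 2 of 4 Nestin-positive and 3 of 3 Nestin-negative arrays, and differed by -0.44 ± 0.32 (adjusted p = 0.586). Kif17, a dendritic motor for NMDA receptors, had 89.1, 78.5, 82.7 and 56.0 across the Nestin-positive arrays and 105, 122 and 40.6 across the Nestin-negative arrays. It was at or above the array median on 1 of 4 Nestin-positive and 2 of 3 Nestin-negative arrays, and differed by -0.09 ± 0.41 (adjusted p = 0.948). At such levels MAS5 ratios are noisy, and the sign of Kif17 changed with the array left out.

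Kinesins of the cilium and of Hedgehog signalling were examined since the receptor deleted in the granule lineage of these mice acts there. Of the 5 on the array 4 were measured, 3 had positive differences and none was called in either fit, with 0 at an unadjusted p under 0.05. Kif7, the Costal-2 relative that organises the tip of the cilium in Hedgehog signalling, had 523, 405, 426 and 388 across the Nestin-positive arrays and 343, 359.7 and 349 across the Nestin-negative arrays. The Nestin-positive arrays were all above the Nestin-negative ones, and the difference of 0.30 ± 0.15 had an adjusted p of 0.399 (0.167 with the block). Kif24, a depolymerase that holds back cilium assembly at the mother centriole, differed by 0.35 ± 0.22 (adjusted p = 0.515) with overlapping groups. The heterotrimeric kinesin-2 motor of anterograde transport in the cilium, formed by Kif3a and Kif3b, gave 0.18 ± 0.17 and -0.18 ± 0.18 (adjusted p = 0.693 and 0.699).

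Of the other kinesins 6 were measured, with a median difference of 0.11 and no call in either fit. Kif16b, a motor of early endosomes, had 360.1, 419, 373 and 386 across the Nestin-positive arrays and 246, 346 and 297 across the Nestin-negative arrays. Its groups did not overlap, and the difference of 0.39 ± 0.16 had an adjusted p of 0.305 (0.178 with the block). Kif26b differed by 0.28 ± 0.25, the neuronal depolymerase Kif2a by 0.13 ± 0.13 and the vesicle motor Kif13a by -0.07 ± 0.12, all with overlapping groups and adjusted p of 0.681 to 0.827. Kif1c and Kif13b differed by 0.10 and 0.00.

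The other 9 kinesin genes were Kif12, Kif14, Kif15, Kif26a, Kif27, Kif28, Kif2b, Kif6 and Kif9. Their 11 probe sets had signals of 0.90 to 109 and did not pass the filter, so no difference is given for them. Among them Kif14, which acts in cytokinesis, and Kif15, a spindle motor that can stand in for Kif11, belong to the mitotic list. The counts of mitotic kinesins given here thus cover 9 of 11. Several kept probe sets were available for 16 of the 28 tested genes, and for 11 of these the signs were all equal. In the other 5, Kif13a, Kif1b, Kif22, Kif3b and Kif5b, the signs were mixed.

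Relative to its mean over all arrays, the mean log2 signal of the 9 mitotic kinesins lay between 0.12 and 0.36 on Nestin-positive arrays and between -0.52 and -0.13 on Nestin-negative arrays. The axonal kinesins lay between -0.24 and -0.02 on Nestin-positive arrays and between -0.04 and 0.38 on Nestin-negative arrays. The mitotic kinesins thus separated the fractions on every array, while the axonal ones overlapped. In the pairs of replicates 1, 4 and 5 the mitotic mean differed by 0.74, 0.29 and 0.34, and the axonal mean by -0.49, -0.11 and -0.01. Both shifts were largest in the pair of replicate 1, whose Nestin-negative array was the lowest of all for the mitotic and the highest for the axonal list. That array also had the lowest summed microglia (2077), pericyte (1372) and meningeal (4988) signals of the Nestin-negative arrays. The axonal list mean includes Kif21a and Kif5b, whose differences were positive.

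Most proliferation markers shifted in the direction of the mitotic kinesins, and granule neuron markers in the direction of most axonal ones. Of the 8 proliferation markers, 7 had positive differences, against 45.5% of all genes. Without the block 0 were called, and 5 were higher at an unadjusted p under 0.05 in limma, against 5.33% of all genes. With the block 6 were higher, against 3.6% of all genes. Fitted with the block, the differences were 0.49 ± 0.10 for Top2a (adjusted p = 0.00231), 0.65 ± 0.12 for Cenpf (0.00119), 0.60 ± 0.12 for Bub1 (0.00246) and 0.38 ± 0.10 for Mki67 (0.0191). Without it, their adjusted p-values were 0.0692, 0.0934, 0.0953 and 0.133. Ccna2 and Ccnb2 also rose with the block, by 0.34 ± 0.10 each (adjusted p = 0.0321 and 0.0375, and 0.215 and 0.458 without it). Pcna at -0.06 ± 0.10 and Cdc20 at 0.12 ± 0.17 were called in neither fit (adjusted p = 0.838 and 0.796 without the block). The summed signal of all 8 was 58253 to 69061 on Nestin-positive and 49568 to 58143 on Nestin-negative arrays. All 16 measured granule neuron markers had negative differences, against 54.5% of all genes, with a median of -0.63. Without the block 4 were called lower, against 0.577% of all genes, and with it 12, against 6.52%. These markers summed to 50534 to 65137 on Nestin-positive and 77939 to 86283 on Nestin-negative arrays. Per array, the neuron markers separated the fractions (-0.53 to -0.10 in Nestin-positive, 0.37 to 0.52 in Nestin-negative cells). The part of these markers' cells in the kinesin differences was not tested.

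**Figure D4:**
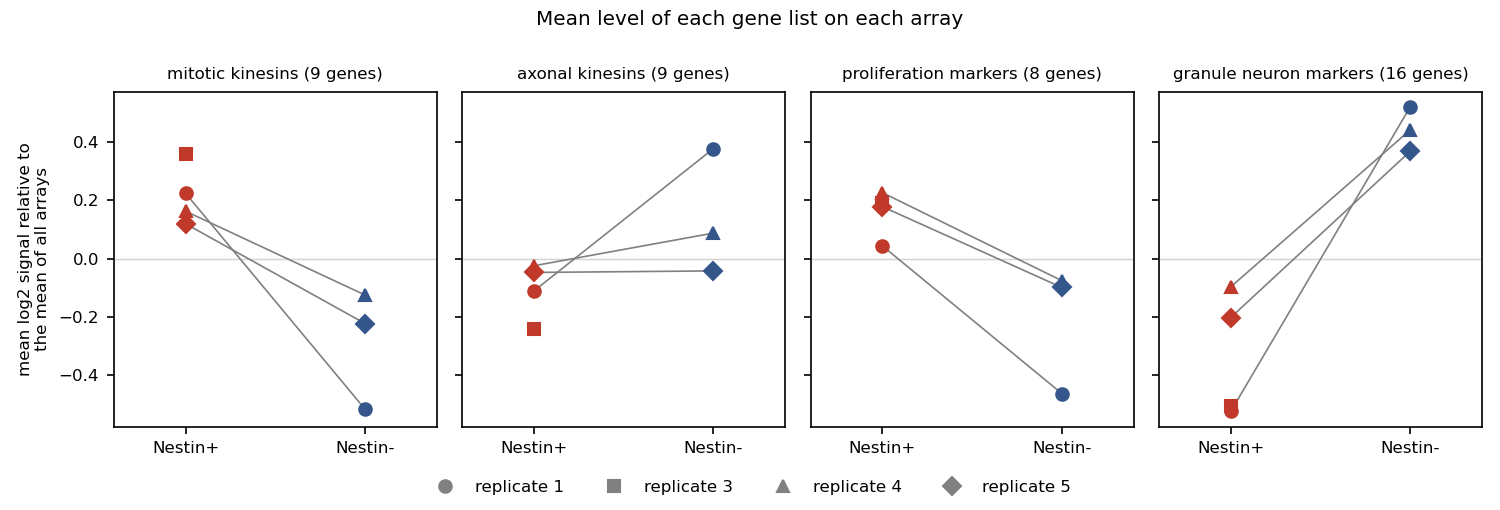
Mean log2 signal of 4 gene lists on each array, relative to the mean of all arrays (y axis), Nestin-positive left of Nestin-negative. Each symbol is 1 array, its shape the replicate number, and grey lines join arrays with the same number. Mitotic kinesins and proliferation markers are higher, and granule neuron markers lower, on all Nestin-positive arrays, while the axonal kinesins of the fractions overlap.

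Kinesins without a Kif symbol were few. Cenpe, the kinetochore kinesin that aligns chromosomes, had 1094, 1268, 888 and 797 across the Nestin-positive arrays and 467, 725 and 538 across the Nestin-negative arrays. The groups were separate, and it rose with the block (0.70 ± 0.15, adjusted p = 0.0032; 0.81 ± 0.20 and 0.101 without it). Of the other 4 measured, including the minus-end motor Kifc1 (0.14 ± 0.22, adjusted p = 0.828), none was called in either fit.

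Most partners of the mitotic kinesins shifted the same way. Of 16 measured partners 15 had positive differences, against 45.5% of all genes, with a median of 0.34. Without the block 0 were called, and 9 were higher at an unadjusted p under 0.05 in limma, against 5.33% of all genes. With the block 11 were higher, against 3.6% of all genes. With the block, Prc1, which Kif4 binds, rose by 0.54 ± 0.11 (adjusted p = 0.00177), and Racgap1, the partner of Kif23, by 0.36 ± 0.10 (0.0228). Cdk1, the kinase that drives mitotic entry and phosphorylates Kif11, rose by 0.39 ± 0.10 (0.0125), the spindle-assembly protein Nusap1 by 0.59 ± 0.12 (0.00186), Hmmr by 0.53 ± 0.13 (0.011) and the kinetochore protein Kntc1 by 0.41 ± 0.11 (0.0213).

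Light chains, adaptors and cargo receptors of the axonal motors were mostly lower in mean log2 signal in Nestin-positive cells. Of 23 measured, 17 had negative differences, with a median of -0.20, where 54.5% of all genes had negative ones. Without the block 0 were called, and in limma 6 had an unadjusted p under 0.05, 2 of them higher and 4 lower, against 14.4% of all genes. The block fit called 2 lower and 0 higher, against 6.52% lower and 3.6% higher over all genes. Klc1, the main neuronal light chain of conventional kinesin, had 3642, 2904, 3936 and 4452 across the Nestin-positive arrays and 6178, 5854 and 5799 across the Nestin-negative arrays. The groups were separate, and with the block the fitted difference was -0.57 ± 0.10 (adjusted p = 0.000844; -0.69 ± 0.14 and 0.0685 without it). The scaffold gene Mapk8ip2 (JIP2) was lower with the block (-0.43 ± 0.13, adjusted p = 0.0461), but not without it (adjusted p = 0.263). Its groups overlapped, and the pairs of replicates 1, 4 and 5 differed by -0.90, 0.08 and -0.47. Fez1, an adaptor of conventional kinesin, differed by 0.35 ± 0.12 in the opposite direction (adjusted p = 0.226, and 0.0591 with the block).

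For the motor of the opposite polarity, dynein and its cofactor dynactin, 19 genes were measured, with a median of -0.11. Of these, 0 were called without the block (4 at an unadjusted p under 0.05 in limma, against 14.4% of all genes). The 4 include Dync1i1, which was dimmer than the median probe set in every Nestin-positive sample. It passed the filter only through the 3 Nestin-negative arrays. The block fit called 1 higher and 0 lower, against 3.6% higher and 6.52% lower over all genes. That gene was Nde1, a dynein regulator that also acts in the mitosis of neural progenitors, with 1168, 1234, 1183 and 1123 across the Nestin-positive arrays and 705, 891 and 987 across the Nestin-negative arrays. The groups did not overlap, and the difference was 0.44 ± 0.12 with the block (adjusted p = 0.0224) and 0.46 ± 0.14 without it (adjusted p = 0.155). The dynactin subunit Dctn1 differed by -0.41 ± 0.15 (adjusted p = 0.237) and the heavy chain Dync1h1 by -0.25 ± 0.16 (adjusted p = 0.544).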

How the data were processed

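RNA of sorted, uncultured cells was biotin-labelled and run on Affymetrix Mouse Genome 430 2.0 arrays, with 1 colour, per the labels' protocols. The authors deposited linear MAS5 intensity values for each probe set, per the submitters' processing notes, with the version not given in the sources used here. Each array had an equal trimmed mean. MAS5 subtracts mismatch signal, which makes ratios of dim probe sets noisy.

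Genes were named from the platform annotation after updating symbols through Entrez ID with RefSeq (34741 of 34945 single-gene probe sets matched), and 64 controls were left out. From log2 intensity, 20162 single-gene probe sets at or above the array median (64.4 to 94.5) on at least 3 arrays were kept, and the brightest stood for its gene. Limma 3.58.1 in R 4.3.3 was fitted with an intensity trend and without covariates. This fit was tested on simulated data with independent noise on each array, and the fit with the replicate block was not simulated. Groups and replicate numbers come from the sample titles. Same-numbered samples deviated together (r = 0.71, 0.39 and 0.47 across genes, other pairs -0.60 to 0.19), so the numbers were taken to pair samples, from the data and not from the labels. Deviations were taken from the mean of each fraction, so a positive value for one pair pushes those of other pairs down. The contrast with the other pairs is therefore partly built in. The members and lists were chosen with earlier results of these data known. Named are kept mitotic, axonal and cilium kinesins, up to 4 others by smallest p or any called, and up to 6 called members of each partner list. Fez1, Kifc1, Dctn1, Dync1h1, Kif1c, Kif13b, Pcna, Cdc20 and the markers of other cell types were chosen after their values were seen. Alternatives changed the normalization, filter, dim values, pseudocount, probe set choice, intensity trend, replicate block and arrays left out.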

Additional observations from a re-analysis of the deposited data

Results flagged for a closer look

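Among 66 kept kinesin probe sets, 3 had a Nestin-positive array whose gap to the nearest other, divided by the range of the 4 log2 values, was above Dixon's 95% critical value for 4 values, and chance gives about 1 in 20. Kif18a on Nestin-positive replicate 3 had a signal of 1449, with 666 to 719 for the rest of that group. A dimmer Kif22 probe set on Nestin-positive replicate 4 had 991, against 744 to 776. A Kif5b probe set other than the brightest had 2741 on Nestin-positive replicate 5, with 528 to 664 for the rest of that group. On the Nestin-negative arrays the same Kif5b probe set had 393, 665 and 2653 for replicates 1, 4 and 5, so that replicate 5 was high in both fractions, while the brightest Kif5b probe set lay between 2050.3 and 3446 on all arrays.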

How the results depend on the processing

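Over 18 alternatives, the median of the mitotic kinesins stayed between 0.36 and 0.60, and that of the axonal kinesins between -0.58 and -0.12, both with their sign kept. The axonal median moved beyond the spread of its array means to -0.58 without Nestin-negative replicate 5 and to -0.12 with the replicate block without replicate 1. It lay between -0.58 and -0.19 with each array left out. The number of kinesin genes called, 1 higher and 1 lower, was 8 and 3 with the replicate block. With that block it was 2 and 2 without replicate 1, 9 and 3 without replicate 4, and 8 and 2 without replicate 5. It was 0 and 0 with quantile normalization, with the mean of probe sets and without the intensity trend, 1 and 0 without a filter, and 0 to 1 in each direction with each array left out, both being 0 unless the omitted array was Nestin-positive replicate 4. Limma called 0 genes of all kinds without the intensity trend (1573 at an unadjusted p under 0.05) and 22 with quantile normalization, 9 higher and 13 lower, against 19 higher and 64 lower. Of all genes 83 passed, against 1122 with the replicate block (728 to 1453 with a pair left out), 52 without a filter, 43 with the mean of probe sets and 0 to 97 with each array left out. The counts of 0 in limma came on omitting Nestin-positive replicate 5, where 1320 had an unadjusted p under 0.05, and Nestin-negative replicate 4, where 1158 did. The cause of these changes was not tested. Among the kinesin genes followed through the alternatives, which left out Kif1c and Kif13b, signs turned for 4 uncalled genes. Kif17 was 0.11 with the block without replicate 4 and up to 0.21 with an array left out (-0.59 at the lowest). Kif22 was 0.16 with the block without replicate 5, 0.23 with the mean of probe sets and up to 0.19 with an array left out (-0.16 at the lowest). Kif1a was 0.025 with the block without replicate 1, and Kif13a 0.0151 with the mean of probe sets. Correcting the background was not run, since the table holds processed values. The block fit has 2 residual degrees of freedom per gene, and fewer with a pair left out. Its calls therefore rest on the spread that limma borrows from other genes, most of all with a pair left out. Probe sets near the array median, such as those of Kif17 and Kif1a, carry little signal over background.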
